A study of Mus musculus with 23 samples.

Results

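The blood-testis barrier is the belt of junctions between neighbouring Sertoli cells, the somatic cells that line the seminiferous tubules and nurse the germ cells. Tight junctions made of claudins and occludin seal it, adherens junctions built on N-cadherin hold the cells together, gap junctions made of connexin 43 couple them, and ZO-1 ties the membrane proteins to the actin cytoskeleton. In the mouse the barrier forms during the first wave of spermatogenesis, as spermatocytes enter meiosis, and it shields meiotic and postmeiotic germ cells from the immune system. The transcripts of 9 of its junction proteins, chosen by name with earlier results of these data known, were followed here among the 27466 genes of the count table: the claudins Cldn3, Cldn5 and Cldn11, the occludin gene Ocln, the junctional adhesion molecules F11r (JAM-A) and Jam3 (JAM-C), the ZO-1 gene Tjp1, the N-cadherin gene Cdh2 and the connexin 43 gene Gja1. All 9 were among the 19255 genes tested, with between 25 and 64128 counts per library.

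The RNA came from testes of wild-type CD-1 mice and poly-A transcripts were sequenced. The in vivo libraries covered 4 ages in days postpartum (dpp), with 6.5 dpp as the youngest, then 10.5 dpp and 22.5 dpp, and 36.5 dpp as the oldest. Pieces of 6.5 dpp testis, either fresh or after controlled slow freezing (CSF), were cultured for 4, 16 or 30 days (D4, D16, D30), so that D4 matches 10.5 dpp in age, D16 matches 22.5 dpp and D30 matches 36.5 dpp, and the necrotic centre of the explants was removed before RNA extraction. The youngest in vivo group held 4 libraries (1 fresh, 3 CSF), those of 10.5 and 22.5 dpp held 3 each and that of 36.5 dpp held 2. The explant groups held 3 libraries for D4, 2 for D16 and 4 for D30 (3 fresh, 1 CSF). All other libraries were from fresh tissue. Explant libraries were pools of several explants, and nothing in the labels says whether in vivo replicates were separate animals, so that p-values measure the spread between these libraries only.

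Total counts ranged from 28351546 to 69029328 per library. Of 23 libraries 2 were left out: 6.5 dpp fresh replicate 3 held the same values as replicate 2, and 6.5 dpp fresh replicate 1 stood apart from its group, with rank correlations across 15774 genes of 0.975 with a D16 library and at most 0.810 with the other 6.5 dpp libraries. 6.5 dpp CSF replicate 3 was also apart, since its highest correlation within its group was 0.942 where the other 3 reached 0.991 or more. In CPM (a gene's counts scaled to the library total), the summed level of 9 Sertoli cell markers fell from 2535 to 3906 at 6.5 dpp to 228 to 280 at 36.5 dpp, whereas it stood at 1228 to 2322 at D30. The sum hides that the markers were not alike. Between 6.5 and 36.5 dpp 7 of the 9 fell and 2 rose (edgeR test, adjusted p under 0.05), beside 37.9% of all genes lower and 39.7% higher. The summed level of 6 spermatid markers rose from 3.37 to 7.94 at 6.5 dpp to 16660 to 21470 at 36.5 dpp and stood at 366 to 1676 at D30. Rhox5 was the Sertoli cell marker nearest to 0, at 0 to 0.271 CPM at 6.5 dpp. No Sertoli or spermatid marker was at 3 counts or fewer in all libraries of a group.

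Promoter sequences are shown for 4 members: Cldn3, which rose in vivo, Cldn11, the most abundant claudin, and Ocln and F11r, which moved together. They are the 250 bases before the RefSeq start site (GRCm38.p6), written 5′ to 3′ on the gene's strand, at chr5:134985964-134986213 (plus strand), chr3:31149670-31149919 (plus strand), chr13:100552719-100552968 (minus strand, the upstream of its 2 starts) and chr1:171437311-171437560 (plus strand). Capitals mark the GC box GGGCGG and the E-box CACCTG on either strand.
Cldn3: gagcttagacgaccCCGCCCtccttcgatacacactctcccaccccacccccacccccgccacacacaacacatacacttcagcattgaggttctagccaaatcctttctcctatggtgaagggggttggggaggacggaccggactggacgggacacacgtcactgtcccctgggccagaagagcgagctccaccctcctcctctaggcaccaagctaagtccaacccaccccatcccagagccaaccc
Cldn11: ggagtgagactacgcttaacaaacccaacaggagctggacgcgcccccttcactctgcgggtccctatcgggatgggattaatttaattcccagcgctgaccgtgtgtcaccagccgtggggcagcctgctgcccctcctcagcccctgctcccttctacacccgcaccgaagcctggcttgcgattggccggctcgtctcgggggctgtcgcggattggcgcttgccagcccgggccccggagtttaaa
Ocln: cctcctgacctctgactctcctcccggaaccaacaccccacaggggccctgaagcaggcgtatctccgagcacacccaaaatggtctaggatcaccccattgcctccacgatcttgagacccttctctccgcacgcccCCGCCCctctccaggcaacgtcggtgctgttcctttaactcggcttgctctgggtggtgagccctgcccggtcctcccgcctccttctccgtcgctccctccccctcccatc
F11r: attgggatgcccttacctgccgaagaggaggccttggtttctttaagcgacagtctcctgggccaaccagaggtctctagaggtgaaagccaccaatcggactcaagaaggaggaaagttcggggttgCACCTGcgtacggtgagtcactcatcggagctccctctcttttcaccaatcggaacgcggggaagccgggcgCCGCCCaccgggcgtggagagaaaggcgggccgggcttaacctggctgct
The windows of 7 of the 9 members were found. The GC box was present in those of Cldn3, Cldn5, Ocln (2 windows), F11r and Tjp1, and in 32.7% of 32851 promoters of the same length. The windows of these genes were 59.6 to 69.2% G and C, against a median of 52.4% over all promoters, so the 2 shares are not of like sequences. The E-box, the kind bound by Snail repressors, was present in F11r and in the second window of Ocln, and in 17.2% of all promoters. Neither the androgen receptor half-site AGAACA (16.1% of all promoters) nor the TATA box TATAAA (12.4%) occurred in any member's window. No overlap between the motifs was seen in these windows, and a match is a description of letters, not of a binding site.

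Levels between genes were compared per kilobase of merged exon (GENCODE M21, GRCm38). At 6.5 dpp F11r had the highest mean, 157 CPM per kilobase, followed by Cldn11 with 137 and Gja1 with 58.4. Cldn3 was lowest with 1.96. The F11r mean included CSF replicate 3 at 677 CPM, where the other libraries were at 265.5 to 372 CPM. In the fresh library the order of the first 2 was the other way. Cldn11 was at 378 CPM and F11r at 355 CPM there, and Cldn11 has the shorter merged exons (1.87 against 2.663 kb). At 36.5 dpp Cldn11 and Cldn3 had the highest means, 34.3 and 34.2 CPM per kilobase, and Ocln was lowest with 1.94. In explants Cldn11 was above F11r, and both above the other members, on all 3 culture days, with Cldn11 at 452, 358 and 389 CPM per kilobase on D4, D16 and D30. Cldn3 was lowest on each of those days, with 0.604, 2.18 and 10.1 CPM per kilobase.

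**Figure D1:**
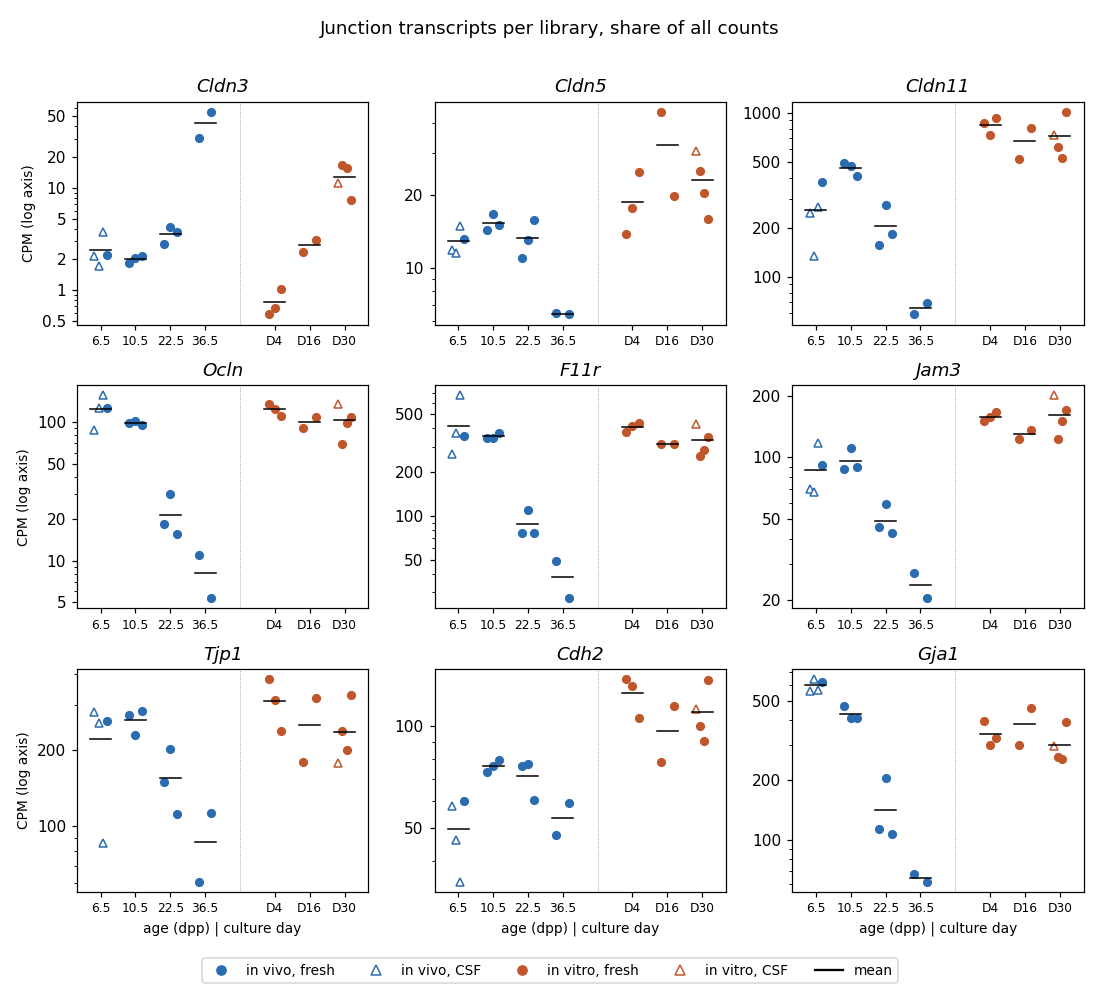
CPM of the 9 junction genes in each of 21 libraries (y axis, log scale) by in vivo age and culture day (x axis); points are libraries, open triangles are CSF tissue and the black line is the group mean. Cldn3 is the one gene whose highest libraries are those of 36.5 dpp (30.8 and 55.4 CPM), while by this share of RNA the 36.5 dpp libraries of the other 8 genes lie below all explant libraries.

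Ordered by mean CPM, the 7 groups fell into steps that differed by gene. For Ocln the 6.5 dpp, D4, D30, D16 and 10.5 dpp groups (means of 123, 123, 103, 99.9 and 98.2 CPM) overlapped from neighbour to neighbour, and 22.5 dpp (21.4 CPM) and 36.5 dpp (8.18 CPM) lay apart below. Gja1 had 6.5 dpp alone at the top (599 CPM), then 10.5 dpp and the 3 culture days, which overlapped (430.5 to 301 CPM), then 22.5 dpp (142 CPM) and 36.5 dpp (64.5 CPM). Cldn11 had the 3 culture days together at the top (844, 727 and 670 CPM), apart from 10.5 dpp (461 CPM), which was apart from 6.5 and 22.5 dpp (257 and 205 CPM). For Tjp1 every neighbour in the order overlapped, from D4 (311 CPM) to 36.5 dpp (86.7 CPM).

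Which junction transcripts changed as the testis matured in vivo? Claudin-3 RNA rose late, and most of the other junction RNAs made up a shrinking share of testis RNA after 10.5 dpp. In such bulk samples, fewer cells of a type and less RNA per cell cannot be told apart. Between 6.5 and 10.5 dpp no member passed an adjusted p of 0.05 in edgeR's quasi-likelihood test (nor in DESeq2), with 3 at an unadjusted p under 0.05. Of all genes, 0.675% rose and 0.467% fell. Between 10.5 and 22.5 dpp 1 member rose and 5 fell, beside 33.6% of all genes higher and 27.9% lower. Between 22.5 and 36.5 dpp 1 rose and 3 fell, beside 23.3% of all genes higher and 27.5% lower. These falls are changes in share of RNA: scaled to the Sertoli cell transcription factor genes Sox9, Wt1 and Gata4, 7 members rose and 0 fell between 10.5 and 22.5 dpp, and 3 rose and 0 fell between 22.5 and 36.5 dpp. Under that scaling 80.6% of all genes rose and 1.46% fell in the first of these steps (median 1.96 on the log2 scale), and 42% rose and 2.25% fell in the second (median 0.91), so the members' shares lay near or below those of all genes.

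Cldn3 (gene ID 12739, chr5:134986214-134987476), a claudin that joins the barrier late and is known to respond to androgen in Sertoli cells, stood at 2.23 CPM in the fresh and at 2.16, 1.73 and 3.74 CPM in the CSF libraries of 6.5 dpp. It was at 1.86, 2.06 and 2.18 CPM at 10.5 dpp, and at 2.80, 4.17 and 3.698 CPM at 22.5 dpp. At 36.5 dpp it was at 30.8 and 55.4 CPM, above every other library. The rise between 10.5 and 22.5 dpp was 1.09 ± 0.35 on the log2 scale (SE, adjusted p = 0.0126) and that between 22.5 and 36.5 dpp was 4.12 ± 0.40 (adjusted p = 5.51e-07), and both directions were the same under every scaling tried. The antisense non-coding gene Wbscr25 overlaps the last 44 of the 1263 bases of Cldn3. Wbscr25 stood at 0.0705 to 0.182 CPM at 6.5 and 10.5 dpp, at 3.62, 0.724 and 4.11 CPM at 22.5 dpp and at 158 and 288 CPM at 36.5 dpp. Whether the authors' counting used strand is not given in the sources used here, and the part of this gene's reads in the Cldn3 count was not tested. The 3 genes whose log2 CPM over the 21 libraries was most like that of Cldn3 were Tnp1 (Pearson r = 0.943) and Tnp2 (r = 0.939), the transition proteins of spermatids, and Lrrc69 (r = 0.936), of 15768 genes. These libraries share ages, tissues and depth, so the values are descriptions.

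Cldn11 (gene ID 18417, chr3:31149920-31164326), the claudin that Sertoli cells need for tight junction strands, stood at 378 CPM in the fresh and at 246, 135 and 268 CPM in the CSF libraries of 6.5 dpp. It was at 494, 477 and 412 CPM at 10.5 dpp, and at 157, 275 and 183 CPM at 22.5 dpp. At 36.5 dpp it was at 59.0 and 69.3 CPM, below all other libraries. By the share of RNA it fell by 0.89 ± 0.30 on the log2 scale between 10.5 and 22.5 dpp (edgeR, adjusted p = 0.0145) and by 1.15 ± 0.34 between 22.5 and 36.5 dpp (adjusted p = 0.0100). Scaled to the Sertoli cell genes the first change turned into a rise of 0.97 (adjusted p = 0.00883) and the second was -0.07 (adjusted p = 0.883). The call between 10.5 and 22.5 dpp was lost without 22.5 dpp replicate 1, and that between 22.5 and 36.5 dpp without 36.5 dpp replicate 1.

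Ocln (gene ID 18260, chr13:100496504-100552718), occludin of the tight junction membrane, and F11r (gene ID 16456, chr1:171437561-171464593), a junctional adhesion molecule, had the steepest falls in share. At 6.5 dpp Ocln was at 126 CPM in the fresh and 86.9, 125 and 155 CPM in the CSF libraries. Ocln stood at 98.2, 101 and 95.2 CPM at 10.5 dpp and at 18.3, 30.3 and 15.6 CPM at 22.5 dpp. F11r stood at 346, 345 and 372 CPM at 10.5 dpp and at 76.2, 110 and 76.4 CPM at 22.5 dpp. The groups did not overlap for either gene. Ocln fell by 1.92 ± 0.29 on the log2 scale (adjusted p = 1.91e-05) and F11r fell by 1.73 ± 0.30 (adjusted p = 9.65e-05). With scaling to the Sertoli cell genes the change of Ocln was -0.08 (adjusted p = 0.840) and that of F11r was 0.14 (adjusted p = 0.770). Between 22.5 and 36.5 dpp Ocln went to 10.99 and 5.38 CPM, a fall by 0.87 ± 0.32 (adjusted p = 0.0330), which was 0.28 with the Sertoli cell scaling and was lost without 22.5 dpp replicate 2 or 36.5 dpp replicate 2. F11r was at 49.0 and 27.2 CPM at 36.5 dpp, and its change from 22.5 dpp did not pass (adjusted p = 0.0993).

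Gja1 (gene ID 14609, chr10:56377300-56390419), connexin 43, was at 621, 560, 646 and 569 CPM at 6.5 dpp and at 469, 410 and 412 CPM at 10.5 dpp. It was at 114, 206 and 107 CPM at 22.5 dpp and at 67.2 and 61.8 CPM at 36.5 dpp, so that each age lay below the one before without overlap. It fell by 1.33 ± 0.21 on the log2 scale between 10.5 and 22.5 dpp (edgeR, adjusted p = 3.93e-05) and it fell by 0.61 ± 0.24 between 22.5 and 36.5 dpp (adjusted p = 0.0418). Scaled to the Sertoli cell genes these were 0.51 (adjusted p = 0.0372) and 0.51 (adjusted p = 0.0943), in the opposite direction. Jam3 (gene ID 83964, chr9:27097384-27155421), JAM-C, which also serves contacts with spermatids, was at 87.9, 112 and 90.2 CPM at 10.5 dpp and at 45.8, 59.0 and 42.6 CPM at 22.5 dpp. Jam3 fell by 0.69 ± 0.22 (adjusted p = 0.0120), and with the Sertoli cell scaling it rose by 1.19 (adjusted p = 0.00640). The call of Jam3 was lost without 10.5 dpp replicate 2 or 22.5 dpp replicate 3, and that of Gja1 between 22.5 and 36.5 dpp without any 1 of 5 libraries, namely 10.5 dpp replicates 2 and 3, 22.5 dpp replicate 2 and both of 36.5 dpp.

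Cldn5, Tjp1 and Cdh2 passed the test in none of the 3 steps between neighbouring ages under TMM scaling. With the Sertoli cell scaling all 3 rose between 10.5 and 22.5 dpp, Cldn5 by 2.01, Tjp1 by 1.38 and Cdh2 by 2.11 on the log2 scale (edgeR, adjusted p = 0.00101, 0.000125 and 1.89e-07). Tjp1 and Cdh2 also rose between 22.5 and 36.5 dpp under it, by 0.73 and 1.12 (adjusted p = 0.0454 and 0.000677). Cldn5 (gene ID 12741, chr16:18776847-18778262), a claudin of endothelium that Sertoli cells also use, was at 11.01 to 15.7 CPM at 22.5 dpp and at 6.47 and 6.404 CPM at 36.5 dpp. Tjp1 (gene ID 21872, chr7:65296165-65527850), the ZO-1 scaffold, was at 112 to 202 CPM at 22.5 dpp and at 60.6 and 113 CPM at 36.5 dpp, and these overlapped. Cdh2 (gene ID 12558), N-cadherin, which germ cells also make, was at 60.4 to 77.5 CPM at 22.5 dpp and at 47.6 and 59.5 CPM at 36.5 dpp.

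Over the whole in vivo span the direct comparison of 36.5 with 6.5 dpp, chosen after the values were seen, gave 2 members higher and 5 lower, beside 39.7% of all genes higher and 37.9% lower. Cldn3 rose by 4.86 ± 0.37 and Cdh2 by 0.86 ± 0.20 on the log2 scale (edgeR with TMM factors, adjusted p = 2.02e-09 and 0.000858). In CPM the Cdh2 groups overlapped, with 34.7 to 60.0 CPM at 6.5 dpp and 47.6 and 59.5 CPM at 36.5 dpp. Ocln fell by 3.19 ± 0.35, F11r fell by 2.75 ± 0.36 and Gja1 fell by 2.48 ± 0.25, the last reversed with the Sertoli cell scaling (edgeR, adjusted p = 1.96e-07, 1.82e-06 and 7.72e-08). Cldn11 fell by 1.26 ± 0.33 and Jam3 fell by 1.15 ± 0.25, and both were reversed with that scaling (adjusted p = 0.00209 and 0.000385). Cldn5 at -0.27 ± 0.32 and Tjp1 at -0.58 ± 0.38 did not pass (adjusted p = 0.450 and 0.174), but Tjp1 did without 6.5 dpp CSF replicate 3 (-0.83). Against Sox9, Wt1 and Gata4, which themselves fell, 6 members rose and 0 fell: Cldn3 by 7.51, Cdh2 by 3.67, Cldn5 by 2.46, Tjp1 by 2.27, Jam3 by 1.56 and Cldn11 by 1.48, while Gja1 at 0.29, F11r at -0.08 and Ocln at -0.45 did not pass (adjusted p = 0.236, 0.887 and 0.301). Of all genes 81.6% rose and 2.92% fell under that scaling, with a median of 2.75, so the members' share of rises was below that of all genes. The geometric mean of those 3 Sertoli cell genes ranged from 147 to 280 CPM in 6.5 dpp libraries, from 249 to 280 CPM in those of 10.5 dpp, from 47.6 to 88.0 CPM in those of 22.5 dpp and from 18.3 to 21.3 CPM in those of 36.5 dpp. Without TMM, by library totals alone, Cdh2 did not pass and 1 member was called higher and 7 lower, beside 31.2% of all genes higher and 49.5% lower, and the median of all genes moved to -0.74. With 6.5 dpp fresh replicate 1 kept, 1 member was called higher and 5 lower, with 13832 of 19277 genes called.

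What did the first days of culture change? At D4, 3 members were higher and 2 lower than in the 6.5 dpp libraries (1 fresh, 3 CSF), beside 10.8% of all genes higher and 10.1% lower. Cldn11 was at 874, 730 and 929 CPM at D4, above all 6.5 dpp libraries, and rose by 1.74 ± 0.28 on the log2 scale (edgeR, adjusted p = 0.000204). Cdh2 was at 138, 131 and 106 CPM against 34.7 to 60.0 CPM and rose by 1.37 ± 0.18 (adjusted p = 3.49e-05). Jam3 was at 150, 158 and 167 CPM against 67.9 to 118 CPM and rose by 0.87 ± 0.21 (adjusted p = 0.00545). All 3 kept their direction under every scaling, but Jam3 did not pass with the Sertoli cell scaling (0.48, adjusted p = 0.327). Cldn3 was at 0.580, 0.671 and 1.03 CPM, below all 6.5 dpp libraries, and fell by 1.67 ± 0.35 (adjusted p = 0.00255). Gja1 was at 398, 300 and 326 CPM, below all 6.5 dpp libraries, and fell by 0.79 ± 0.20 (adjusted p = 0.00911), a call that was lost without D4 replicate 2. The D4 explants were all of fresh tissue and the 6.5 dpp libraries mostly CSF, so freezing cannot be fully told apart from culture here. In the 1 fresh 6.5 dpp library, Cldn3 at 2.23 CPM and Gja1 at 621 CPM were above all D4 libraries. With fresh libraries only (1 at 6.5 dpp) fewer members and fewer of all genes passed, and neither fall did. With 6.5 dpp fresh replicate 1 kept, 3 members were higher and 1 lower, with 1113 of 19277 genes called.

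How did the members change during culture? From D4 to D16 and from D16 to D30, Cldn3 was the member that passed. Beside 18.4% of all genes higher and 5.48% lower from D4 to D16, it went to 2.36 and 3.12 CPM, a rise by 1.88 ± 0.40 on the log2 scale (edgeR, adjusted p = 0.00165). From D16 to D30, with 1.46% of all genes higher and 0.332% lower, it went to 16.5, 15.6 and 7.68 CPM in fresh and 11.2 CPM in CSF explants, a rise by 2.26 ± 0.41 (adjusted p = 0.00718). This last call was lost without D16 replicate 2 and with the Sertoli cell scaling (2.37, adjusted p = 0.0606). Wbscr25 was at 1.36 and 0.481 CPM at D16 and at 28.4, 14.4, 7.31 and 4.90 CPM at D30, so the antisense gene moved with Cldn3 in culture as well.

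Against the starting tissue, in a comparison chosen after the values were seen, 5 members were higher and 1 lower at D30, beside 35.4% of all genes higher and 26% lower. Cldn3 rose by 2.47 ± 0.31, Cldn11 by 1.59 ± 0.26 and Cdh2 by 1.25 ± 0.17 on the log2 scale (edgeR, adjusted p = 2.53e-06, 4.58e-05 and 6.32e-06). Jam3 rose by 0.98 ± 0.19 and Cldn5 by 0.94 ± 0.26 (adjusted p = 0.000275 and 0.00409). Gja1 fell by 0.90 ± 0.18 (adjusted p = 0.000358). These 6 directions held under every scaling tried. Ocln, F11r and Tjp1 did not pass (adjusted p = 0.520, 0.370 and 0.551).

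Did explants keep the junction transcripts at the level of in vivo age-matched controls? At D4 few members differed from 10.5 dpp in the test. 2 members were higher and 1 lower, beside 4.92% of all genes higher and 3.18% lower. Cdh2 was at 138, 131 and 106 CPM against 73.4, 76.1 and 79.7 CPM and was higher by 0.80 ± 0.20 (edgeR, adjusted p = 0.0148). Jam3 was at 150, 158 and 167 CPM against 87.9, 112 and 90.2 CPM and was higher by 0.80 ± 0.22 (adjusted p = 0.0318). Cldn3 was lower by the same test (it fell by 1.32 ± 0.37, adjusted p = 0.0326), with D4 libraries below all 10.5 dpp libraries. The groups of Cldn11 did not overlap either, but its adjusted p was 0.0555. None of the 3 calls passed with the Sertoli cell scaling or when 6.5 dpp fresh replicate 1 was kept, and those of Cdh2 and Cldn3 were lost without any 1 of 5 libraries (10.5 dpp replicates 1 to 3, D4 replicates 1 and 2), that of Jam3 without any of these but 10.5 dpp replicate 2 and also without D4 replicate 3. In contrast, 6 members passed with only these 2 groups in the fit. That fit also called far more of all genes, 6465 of 16288 against 1559 of 19255 in the main fit.

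At D16 junction RNA made up a larger share in explants than in 22.5 dpp testes, a direction that was reversed for Gja1, Jam3 and Cldn5 with the Sertoli cell scaling. 6 members were higher and 0 lower, beside 14% of all genes higher and 11.8% lower, and the median over the 9 was 1.25 on the log2 scale against -0.08 over all genes. Ocln was at 90.9 and 109 CPM against 18.3, 30.3 and 15.6 CPM, higher by 2.08 ± 0.31 (edgeR, adjusted p = 0.000185). F11r was at 314 and 312 CPM against 76.2, 110 and 76.4 CPM, higher by 1.69 ± 0.33 (adjusted p = 0.00168). Cldn11 was at 527 and 814 CPM against 157, 275 and 183 CPM, higher by 1.57 ± 0.33 (adjusted p = 0.00289). In none of these did the groups overlap. Gja1 was at 300.1 and 463 CPM against 114, 206 and 107 CPM, and Jam3 at 123 and 136 CPM against 45.8, 59.0 and 42.6 CPM. Gja1 was higher by 1.29 ± 0.23 (adjusted p = 0.000926), Jam3 by 1.25 ± 0.24 (adjusted p = 0.00182) and Cldn5 by 1.13 ± 0.32 (adjusted p = 0.0186). Cldn5 was at 44.4 and 19.9 CPM at D16 and its difference was 0.41, with no call, without D16 replicate 1. Cldn5 also lost its call without 22.5 dpp replicate 1, and Cldn11 lost its call without D16 replicate 2.

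Sertoli cell markers moved the same way. 7 of 9 Sertoli cell markers were higher at D16 than at 22.5 dpp and 1 was lower, and their summed level was 1605 to 2145 CPM against 475 to 878 CPM. With the Sertoli cell scaling 0 members were higher and 3 were lower: Cldn3 (-2.03, adjusted p = 0.00540), Cdh2 (-1.26, adjusted p = 0.000292) and Tjp1 (-0.98, adjusted p = 0.00835). By that scaling Ocln at 0.65, F11r at 0.26 and Cldn11 at 0.07 stayed positive and Gja1 at -0.19, Jam3 at -0.21 and Cldn5 at -0.24 turned negative, none of them passing (adjusted p from 0.153 for Ocln to 0.859 for Cldn11). Under this scaling 1.12% of all genes were higher and 68.8% lower, with a median over all genes of -1.56, so that the members' 3 lower calls were a smaller share than that of all genes.

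At D30 the same members made up a larger share than at 36.5 dpp, a direction that was reversed for F11r, Jam3, Gja1 and Cldn5 with the Sertoli cell scaling, and Cldn3 a smaller one. 6 members were higher and 1 lower, beside 32.4% of all genes higher and 35% lower, with a median over the 9 of 1.58 on the log2 scale against -0.03 over all genes. Ocln was at 68.9, 97.6, 109 and 135 CPM against 10.99 and 5.38 CPM, higher by 3.01 ± 0.35 (edgeR, adjusted p = 1.63e-06). Cldn11 was at 619, 531, 1018 and 739 CPM against 59.0 and 69.3 CPM, higher by 2.85 ± 0.36 (adjusted p = 4.37e-06). F11r was at 258, 286, 348 and 431 CPM against 49.0 and 27.2 CPM, higher by 2.48 ± 0.36 (adjusted p = 1.44e-05). Every D30 library was above both 36.5 dpp libraries for these 3 genes. Jam3 was at 124, 152, 172 and 202 CPM against 27.1 and 20.5 CPM, Gja1 at 260, 255, 392 and 296 CPM against 67.2 and 61.8 CPM and Cldn5 at 25.2, 20.5, 15.9 and 30.5 CPM against 6.47 and 6.404 CPM, again with no overlap. Jam3 was higher by 2.13 ± 0.26 (adjusted p = 2.99e-06), Gja1 by 1.58 ± 0.24 (adjusted p = 2.48e-05) and Cldn5 by 1.20 ± 0.33 (adjusted p = 0.00385). Tjp1 (0.80 ± 0.39, adjusted p = 0.0761) and Cdh2 (0.39 ± 0.21, adjusted p = 0.107) did not pass, although both passed by library totals alone. Tjp1 also passed without 36.5 dpp replicate 2 (1.32) or 6.5 dpp CSF replicate 3 (0.80). Cldn3 went the other way: its 4 explant libraries at 7.68 to 16.5 CPM lay below the in vivo 30.8 and 55.4 CPM, and it fell by 2.39 ± 0.34 (adjusted p = 1.45e-05).

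The same genes read differently against the Sertoli cell genes. 8 of 9 Sertoli cell markers were higher at D30 than at 36.5 dpp, and all 6 spermatid markers were lower. With scaling to Sox9, Wt1 and Gata4, 0 members were higher and 5 were lower: Cldn3 by -4.80 (adjusted p = 1.64e-07), Cdh2 by -2.13 (adjusted p = 7.15e-08), Tjp1 by -1.71 (adjusted p = 1.10e-05), Cldn5 by -1.28 (adjusted p = 0.0196) and Gja1 by -0.97 (adjusted p = 0.000573). Cldn11 at 0.30, Ocln at 0.44, F11r at -0.08 and Jam3 at -0.41 did not pass (adjusted p = 0.396, 0.302, 0.873 and 0.308). Under this scaling 1.13% of all genes were higher and 85.4% lower, with a median of -2.53, so the members' share of lower calls was below that of all genes. Cldn3 was the member that was lower in D30 explants under every scaling.

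**Figure D2:**
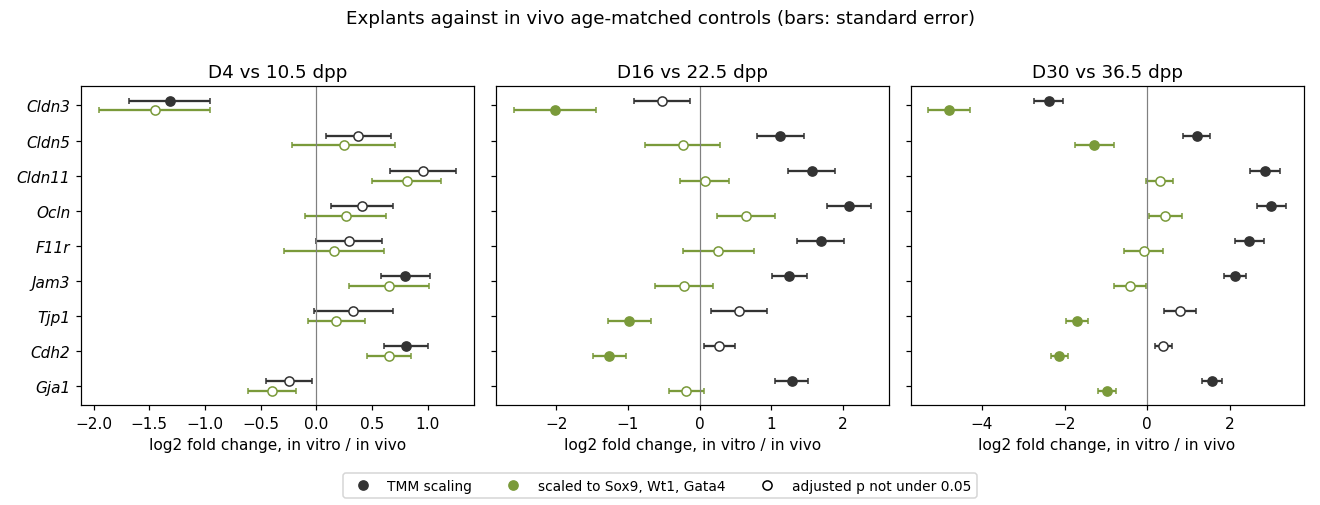
Log2 fold change of explants over in vivo age-matched controls (x axis) for the 9 genes (y axis) at 3 culture times, with standard errors, under TMM scaling and under scaling to Sox9, Wt1 and Gata4; filled points have an adjusted p under 0.05. At D30 against 36.5 dpp, Ocln is at 3.01 and 0.44 and Cldn3 at -2.39 and -4.80 under the 2 scalings, while Gja1 turns from 1.58 to -0.97.

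The direct ratio to the geometric mean of Sox9, Wt1 and Gata4, given here on the log2 scale with no test, shows the level per Sertoli cell factor RNA. Cldn11 stood at 1.76 ± 0.14 (SD, n = 3) at 22.5 dpp and 1.70 ± 0.01 (n = 2) at 36.5 dpp, and at 1.61 ± 0.15 (n = 3) at D4, 1.84 ± 0.10 (n = 2) at D16 and 2.00 ± 0.12 (n = 4) at D30, all above 10.5 dpp (0.80 ± 0.16, n = 3). Ocln stayed between -1.99 and 0.08 in every library. Cdh2 stood at -2.24 ± 0.16 (n = 4) at 6.5 dpp, 0.27 ± 0.43 (n = 3) at 22.5 dpp and 1.43 ± 0.07 (n = 2) at 36.5 dpp, but at -0.95 ± 0.16 (n = 2) at D16 and -0.70 ± 0.10 (n = 4) at D30. Tjp1 rose alike in vivo, to 2.07 ± 0.48 (n = 2) at 36.5 dpp, and stood at 0.38 ± 0.28 (n = 4) at D30. Cdh2 and Tjp1 thus parted from Cldn11 and Ocln on this ratio. They were not alone in this: Cldn3, Gja1 and Cldn5 also stood higher in both 36.5 dpp libraries than in all D30 libraries. For Gja1 the ratio was 1.53 and 1.88 against 0.69 to 0.79. Whether the Cdh2 and Tjp1 RNA came from Sertoli or germ cells was not tested.

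**Figure D3:**
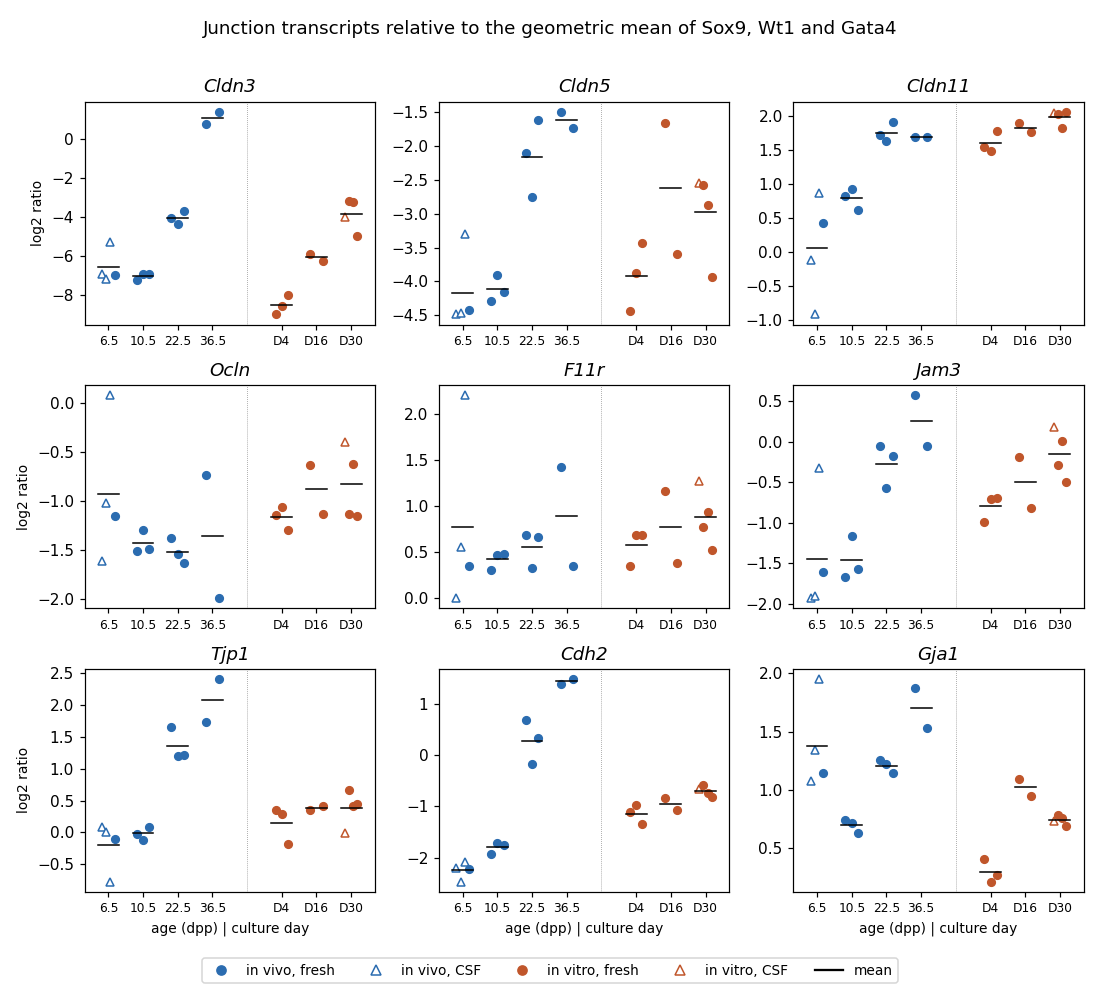
Log2 ratio of each junction gene's CPM to the geometric mean CPM of Sox9, Wt1 and Gata4 (y axis) in each library, by in vivo age and culture day (x axis); open triangles are CSF tissue and the black line is the group mean. For Cdh2 and Cldn3 the 36.5 dpp libraries (means 1.43 and 1.07) lie above all D30 libraries (means -0.70 and -3.86), as they do for Tjp1, Gja1 and Cldn5. For Ocln, F11r and Jam3 the groups overlap, and for Cldn11 the D30 libraries lie above.

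Did the culture effect change with time? The difference of explant from in vivo values moved up from D4 to D16 for Gja1 by 1.53 ± 0.31 on the log2 scale (edgeR, adjusted p = 0.00655). For Ocln it moved up by 1.67 ± 0.41 (adjusted p = 0.0193). So 2 members were higher and 0 lower, beside 5.26% of all genes higher and 4.36% lower. The mean of Gja1 was below the in vivo mean at D4 (341 against 430.5 CPM) and above it at D16 (381.5 against 142 CPM). From D16 to D30 the difference became more negative for Cldn3 by -1.86 ± 0.52 (adjusted p = 0.0188), 1 member lower and 0 higher, beside 11.5% of all genes higher and 8.63% lower. With the Sertoli cell scaling neither Gja1 nor Ocln passed, Cdh2 (-1.92, adjusted p = 0.000832) and Tjp1 (-1.16, adjusted p = 0.0247) did, beside 0.519% of all genes higher and 43% lower. Cldn3 kept its direction from D16 to D30 at -2.77 (adjusted p = 0.0128), beside 0.732% higher and 16.5% lower. The Ocln call was lost without 22.5 dpp replicate 1 or 3, D4 replicate 3 or D16 replicate 2, that of Gja1 without D16 replicate 2, and that of Cldn3 without 36.5 dpp replicate 2.

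How did the rest of the junction genes behave? In 5 further lists, at D30 against 36.5 dpp, 10 of 20 other tight junction genes were higher and 2 lower, 9 of 15 adherens junction and desmosome genes were higher and 2 lower, and 5 of 11 other gap junction genes were higher and 2 lower. Of 10 genes of the ectoplasmic specialization, the actin-based contact of Sertoli cells with each other and with spermatids, 7 were higher and 1 lower. The 11 polarity complex genes split into 3 higher and 5 lower. Of all genes, 32.4% were higher and 35% lower. By the Sertoli cell scaling the higher calls of those 5 lists became 2, 0, 0, 0 and 0, and the lower calls 13, 11, 5, 7 and 9, beside 1.13% of all genes higher and 85.4% lower. Jam2 (JAM-B, the partner of JAM-C) was at 249 to 375 CPM at D30 against 15.6 and 20.9 CPM, higher by 3.41 ± 0.27 (edgeR, adjusted p = 4.00e-08). Cldn15 was at 3.02 to 5.54 CPM against 0.0772 and 0.178 CPM, higher by 4.34 ± 0.46 (adjusted p = 6.65e-07). Both kept that direction with the Sertoli cell scaling. Nectin3, the nectin that spermatids carry at the ectoplasmic specialization, was at 119 to 330 CPM against 610 and 728 CPM and lower (-2.08 ± 0.34, adjusted p = 4.31e-05). Prkcz (atypical protein kinase C zeta) was lower with -2.73 ± 0.22 (adjusted p = 4.46e-08), and Igsf5 with -2.88 ± 0.63 (adjusted p = 0.000690).

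At D16 against 22.5 dpp, 9 of 20 other tight junction genes, 4 of 15 adherens junction and desmosome genes, 4 of 11 other gap junction genes, 2 of 11 polarity genes and 3 of 10 ectoplasmic specialization genes were higher, and 1 gene in all these lists, Nectin3, was lower (-1.14 ± 0.38, edgeR adjusted p = 0.0367), where 14% of all genes were higher and 11.8% lower. With the Sertoli cell scaling the higher calls became 1, 1, 2, 0 and 0 and the lower ones 8, 11, 4, 9 and 7, where 1.12% of all genes were higher and 68.8% lower. Gja4 (connexin 37) was higher by 2.66 ± 0.25 (adjusted p = 2.32e-06), Jam2 by 2.14 ± 0.23 (adjusted p = 7.85e-06) and Esam, an endothelial adhesion molecule, by 2.03 ± 0.27 (adjusted p = 5.92e-05). Endothelial markers were higher in the explants too, at 274 to 372 CPM in sum of 8 genes at D16 against 57.8 to 88.7 CPM at 22.5 dpp, with 7 of 8 called higher. At D30 the sum was 184 to 247 CPM against 32.2 to 35.6 CPM at 36.5 dpp. The most similar profiles to Cldn5 over the libraries were Bckdha (r = 0.898), the endothelial connexin Gja4 (r = 0.889) and the endothelial Icam2 (r = 0.887). Like these markers, Cldn5 was higher in explants at D16 and D30. In vivo from 10.5 to 22.5 dpp they differed: 7 of 8 endothelial markers fell, in sum from 228 to 269 CPM to 57.8 to 88.7 CPM. Cldn5 was at 14.3 to 16.7 CPM and then at 11.01 to 15.7 CPM, with no call. The part of endothelial cells in the level of Cldn5 was not tested.

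**Figure D4:**
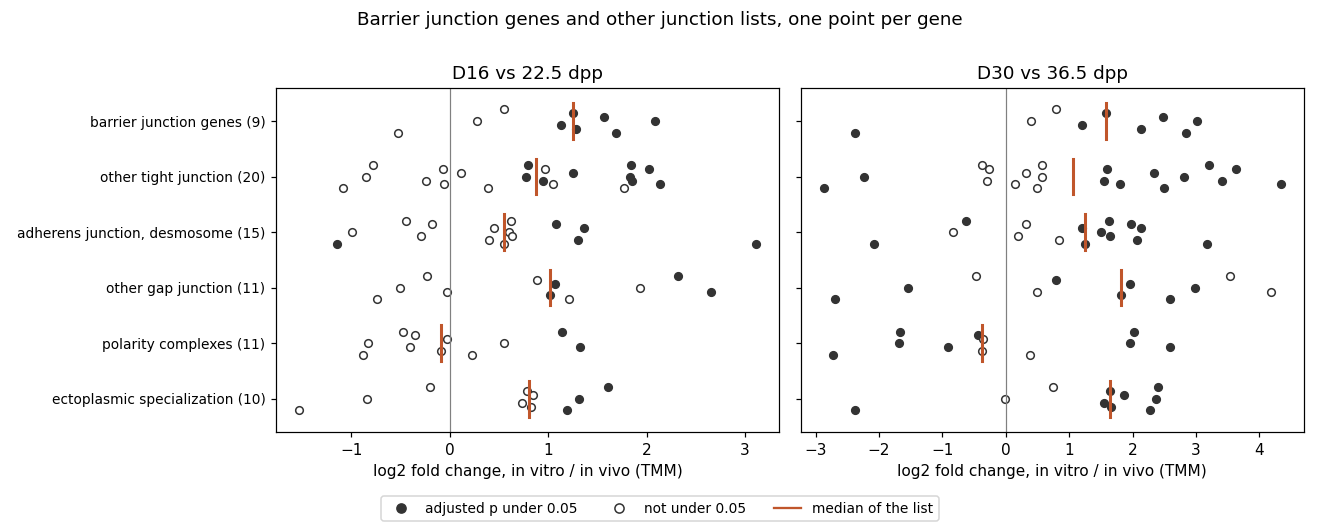
Log2 fold change of explants over in vivo age-matched controls under TMM scaling (x axis) for each gene of 6 lists (y axis), at D16 and D30; filled points have an adjusted p under 0.05 and the red bar is the list median. The medians of the 9 barrier junction genes are 1.25 and 1.58 (-0.21 and -0.97 with the Sertoli cell scaling), and those of the polarity complexes are -0.09 and -0.37.

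At D4 against 10.5 dpp, 3 of 20 other tight junction genes were higher and 1 lower. Of 15 adherens junction and desmosome genes 0 were higher and 2 lower, and of 11 other gap junction genes 1 was higher and 0 lower. In the polarity and ectoplasmic specialization lists 0 passed. Of all genes, 4.92% were higher and 3.18% lower. Cldn1, another claudin, was lower (-2.91 ± 0.34 on the log2 scale, edgeR adjusted p = 1.77e-05), with 3.69 to 4.68 CPM at D4 against 29.2 to 39.5 CPM, and Cldn7 was higher by 2.51 ± 0.42 (adjusted p = 0.000719). In vivo Cldn1 was at 0.695 to 2.15 CPM at 22.5 dpp. Between 22.5 and 36.5 dpp in vivo, Jup (plakoglobin) rose by 2.02 ± 0.26 (adjusted p = 1.23e-05) and Prkcz by 1.99 ± 0.23 (adjusted p = 4.08e-06), while Itgb1 (integrin beta 1) fell by 1.37 ± 0.20 (adjusted p = 3.55e-05). In that step 3 other tight junction genes rose and 11 fell, 2 adherens junction and desmosome genes rose and 7 fell, 2 other gap junction genes rose and 2 fell, 3 polarity genes rose and 4 fell and 1 ectoplasmic specialization gene rose and 5 fell, beside 23.3% of all genes that rose and 27.5% that fell. With the Sertoli cell scaling 6, 3, 3, 5 and 2 genes of these lists rose and 0, 0, 0, 0 and 1 fell, beside 42% of all genes that rose and 2.25% that fell. These lists hold members found in germ cells and in other somatic cells of the testis as well as in Sertoli cells.

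The other marker lists, set beside the members for D30 and 36.5 dpp, read as follows in summed CPM. 6 Leydig cell markers were at 325 to 600 against 1571 to 1947, and 5 peritubular markers at 238 to 477 against 72.1 to 78.4. The 5 macrophage markers were at 168 to 231 against 68.1 to 69.1, 6 spermatogonial markers at 703 to 975 against 232 to 351, and 6 spermatocyte markers at 800 to 1850 against 1943 to 2629. The 5 rete testis markers were at 6.64 to 12.5 against 1.37 to 1.85, with Pax8 at 3 counts or fewer in both 36.5 dpp libraries. Their part in the members' levels was not tested.

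The likeness between members was also described over the 21 libraries. Ocln and F11r had the highest Pearson r of log2 CPM, 0.990, followed by Cldn11 and Jam3 with 0.939 and Ocln and Gja1 with 0.928. Cldn3 had a negative r with every other member, from -0.22 with Cdh2 to -0.62 with Gja1. Clu (clusterin, a main Sertoli cell product) was the gene most like Cldn11 (r = 0.988), Syap1 most like Ocln (r = 0.994), Utrn most like Tjp1 (r = 0.987), Rhoc most like F11r (r = 0.992), Dhrs7 most like Jam3 (r = 0.988), Anp32a most like Gja1 (r = 0.980) and Esyt3 most like Cdh2 (r = 0.967). The libraries share ages, culture days and depth, so these values describe these libraries only.

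The freezing step was described with no test, since it left 1 fresh library at 6.5 dpp and 1 CSF library at D30. At 6.5 dpp the fresh library lay within the range of the 3 CSF libraries for 7 of 9 members and above it for Cldn11 (378 CPM against 135 to 268) and Cdh2 (60.0 CPM against 34.7 to 58.2). At D30 the CSF library lay within the range of the 3 fresh libraries for 4 members, above it for Cldn5, Ocln, F11r and Jam3, and below it for Tjp1 (178 CPM against 200 to 330). With 1 library against 3, a place outside the range is common by rank alone. The share of all genes outside these ranges was not computed, so the counts do not show an effect of freezing on the members. Among the CSF libraries of 6.5 dpp, replicate 3 had the highest F11r, 677 CPM, and the lowest Tjp1, 86.2 CPM.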

How the data were processed

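Poly-A RNA of mouse testes and explants had been sequenced as single reads. Per the submitters' processing notes, reads were demultiplexed with bcl2fastq 2.17.1.14, aligned with STAR 2.7.3a to GRCm38 and counted per gene with HTSeq 0.12.4, and the authors deposited raw counts per gene, with no normalization. The annotation release and the strand setting of the counting are not given in the sources used here. The table held 27466 genes by NCBI gene ID, and 27373 had a symbol. Of 23 libraries 21 were analysed, fresh and CSF tissue of one age or day together.

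CPM was computed here by scaling each gene's counts to the library total. Differences were tested in 1 fit over 7 groups with edgeR 4.0.16 (R 4.3.3, TMM factors, filterByExpr, quasi-likelihood F test), two-sided, and Benjamini-Hochberg adjusted over 19255 genes, with a call at an adjusted p under 0.05. Standard errors were derived from the fold change and its test statistic. The scripts were tested on simulated data. Alternatives were RLE factors, library totals, factors from Sox9, Wt1 and Gata4, DESeq2 1.42.0, no filter on low counts, a strict threshold, fresh libraries only, the left-out library kept, only the groups compared, a replicate block, and each library left out. The members and the lists of junction and marker genes were chosen with earlier results of these data known, as were the comparisons of 36.5 dpp and D30 with 6.5 dpp, which were added after the data were seen. Named genes were all 9 members and, for each other junction list in the 3 comparisons with in vivo age-matched controls and in that of 36.5 with 22.5 dpp, some of the 2 most significant genes called higher and the 2 called lower. Genes most like a member were sought among those with a mean CPM of at least 1.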

Additional observations from a re-analysis of the deposited data

Results flagged for a closer look

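Tjp1 in 6.5 dpp CSF replicate 3 was at 86.24 CPM, far below the nearest library of its group at 256.6 CPM, a gap of 0.873 of the group's range. Of 18 such groups of 4 libraries tested this was the 1 that stood out, and chance alone marks about 1 in 20.

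The culture effect, the difference of explants from their in vivo age-matched controls on the log2 scale, differed between times for 3 members in edgeR's test of the difference. It was higher at D16 than at D4 for Ocln by 1.67 (adjusted p = 0.0193) and for Gja1 by 1.53 (adjusted p = 0.00655), and for Cldn3 it was lower at D30 than at D16, by -1.86 (adjusted p = 0.0188). With factors from Sox9, Wt1 and Gata4 the first 2 were 0.39 (Ocln) and 0.21 (Gja1) and did not pass.

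The left-out library, 6.5 dpp fresh replicate 1, lay above every analysed 6.5 dpp library for 4 members. Cldn5 was at 26.84 CPM against at most 14.96, Cldn11 at 547.3 CPM against at most 378.2, Tjp1 at 309.9 CPM against at most 281.4 and Cdh2 at 94.5 CPM against at most 59.98.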

How the results depend on the processing

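The fold changes recomputed were those of members called in each comparison and of all 9 members at 36.5 against 6.5 dpp and at D30 against 36.5 dpp. Of 1643 values for 53 fold changes, 1492 kept direction and side of the threshold, 122 lost the call, 9 gained one and 20 changed sign, and the cause was not tested. All 20 changed sign with factors from Sox9, Wt1 and Gata4: between 10.5 and 22.5 dpp Cldn11 0.97, Gja1 0.51, F11r 0.14 and Jam3 1.19, between 22.5 and 36.5 dpp Ocln 0.28 and Gja1 0.51, between 6.5 and 36.5 dpp Cldn5 2.46, Cldn11 1.48, Tjp1 2.27, Gja1 0.29 and Jam3 1.56, at D16 against 22.5 dpp Cldn5 -0.24, Gja1 -0.19 and Jam3 -0.21, and at D30 against 36.5 dpp Cldn5 -1.28, Tjp1 -1.71, Gja1 -0.97, Cdh2 -2.13, F11r -0.082 and Jam3 -0.41. That scaling called 3 members from D4 to D16 (4771 of 19255 genes) and 0 from D16 to D30 (130 genes). It called 0 at D4 against 10.5 dpp (1065 genes) and 3 at D16 against 22.5 dpp (13461 genes).

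A strict threshold was 2 or more on the log2 scale in either direction with an adjusted p up to 0.001. Members called by it are given here with the share of all genes called. In vivo they were 0 from 10.5 to 22.5 dpp (18.4%), 1 from 22.5 to 36.5 dpp (9.9%) and 4 from 6.5 to 36.5 dpp (40.8%). Against 6.5 dpp they were 0 at D4 (2.41%) and 1 at D30 (19.6%). In culture they were 0 from D4 to D16 (7.86%) and 0 from D16 to D30 (0.00519%). Against in vivo age-matched controls they were 0 at D4 (1.07%), 1 at D16 (1.42%) and 5 at D30 (21.3%). For the changes of the culture effect they were 0 from D4 to D16 (0.431%) and 0 from D16 to D30 (1.67%). From 22.5 to 36.5 dpp, 4 members were called in the main fit (9771 of 19255 genes). There were 2 with RLE factors (9208 of 19255), DESeq2 (9364 of 27466), the left-out library kept (7539 of 19277) or only the groups compared (7703 of 18188). By library totals there were 7 (11626 of 19255). Library totals called 1 member at D4 against 10.5 dpp (1407 of 19255 genes). For the change of the culture effect they called 3 from D4 to D16 (2206 genes) and 5 from D16 to D30 (6594 genes). With the left-out library kept, 0 were called at D4 against 10.5 dpp (447 of 19277 genes) and 0 for the change from D4 to D16 (203 genes). Fresh libraries only gave fewer members at D4 against 6.5 dpp, where 1 fresh library was left. For the change from D16 to D30 fresh libraries gave 3 (4696 of 19573 genes). Only the groups compared gave 0 from D16 to D30 (0 of 17960 genes) and 6 at D4 against 10.5 dpp (6465 of 16288).

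Leaving out 1 library gave 2 to 6 calls from 22.5 to 36.5 dpp, 1 to 2 from D4 to D16, 0 to 1 from D16 to D30, 0 to 4 at D4 against 10.5 dpp, and 0 to 3 for each change of the culture effect. Same-numbered libraries did not deviate together (median r 0.0103 over 64 pairs), and 8 of 21 libraries correlated best with their own number. With a replicate block 2 members were called from 22.5 to 36.5 dpp (9387 of 19255 genes), and 8 at D30 against 36.5 dpp (12813 genes).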
